A study of Mus musculus with 110 samples.

Results

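Epididymal white adipose tissue (eWAT) of methionine-restricted mice was compared between 24 h at 4 °C and room temperature. The comparison holds 14 of the 110 libraries of the series, 7 of the group MetR_CE (methionine restriction with cold exposure) and 7 of MetR_RT (methionine restriction at room temperature), each from another mouse. They were chosen by matching the columns of the eWAT count table to the sample titles by library number, without use of any measured value. All mice were wild-type C57BL/6N males, 16 weeks of age at the end and single-housed. Both groups ate a cysteine-free diet with 0.12% methionine for 7 days at 22 °C, and the MetR_CE mice then spent a further day at 4 °C, so that the cold groups were also 1 day longer on the diet. The control-diet groups, Ctrl_RT and Ctrl_CE, held 7 eWAT libraries each and ate the same cysteine-free diet with 0.86% methionine. PolyA RNA of whole fat pads was sequenced, and every value below is a level of RNA in the whole pad. In such bulk samples, fewer cells of a type and less RNA per cell cannot be told apart.

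eWAT is the visceral fat pad that lies along the epididymis. Its adipocytes store triglyceride, break it down when noradrenaline acts on beta-adrenergic receptors and cAMP rises, and in mice acquire few of the thermogenic features that cold induces in brown and inguinal fat. They also synthesise fatty acids from glucose, under the transcription factors SREBP1 and ChREBP, and cholesterol under SREBP2. Like other tissues, fat has a molecular clock, in which BMAL1 (Arntl) with CLOCK or NPAS2 drives E-box genes such as Per1, Per2, Dbp and Tef, while PER and CRY proteins inhibit BMAL1 and the nuclear receptors REV-ERB alpha and beta (Nr1d1, Nr1d2) repress Arntl and Npas2.

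The libraries held 22021114 to 28410006 counts in MetR_RT (median 26557408) and 24066773 to 33372110 in MetR_CE (median 29059485). Several libraries carried RNA of neighbouring organs. The summed level of 8 testis and sperm markers was 2859 normalised CPM (counts scaled to the library total by TMM) in MetR_RT 7, against 0.4 to 34.1 in the other MetR_RT libraries and 0.6 to 8.5 in MetR_CE. The summed level of 12 epididymal epithelium markers was 1496 normalised CPM in MetR_RT 2 and 137.1 in MetR_CE 1, and at most 21.2 in the rest of these 14. For 8 ciliated epithelium markers it was 504.3 in MetR_RT 7, 242.6 in MetR_CE 4 and 140.4 in MetR_CE 1, and at most 96.9 in the rest. MetR_RT 7 also had the lowest sum of 8 adipocyte markers, 17478 normalised CPM, where the other 13 libraries ranged from 32156 to 41595, and adipocyte markers were thus high in all 14. Among the control-diet libraries, Ctrl_RT 4 and Ctrl_RT 5 held 1674 and 2897 normalised CPM of testis markers and Ctrl_RT 2 held 9611 of epididymal markers. The study left out 3 Ctrl_RT libraries and 1 MetR_RT library that it does not name, and its source data matched best the set without Ctrl_RT 2, 4 and 5 and MetR_RT 7. Results are therefore given for all 28 eWAT libraries, for 27 (without MetR_RT 7), for 24 (without those 4) and, chosen after seeing the data, for 22 (without the 6 libraries over 100 CPM of testis or epididymal markers). Ciliated epithelium markers did not enter that choice: MetR_CE 4, Ctrl_CE 2 (295.1 normalised CPM) and Ctrl_RT 6 (282.3) stayed in the 22. The spread between libraries was estimated over the 4 groups together, so the control-diet libraries kept in a fit bear on the test between the MetR groups.

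**Figure D1:**
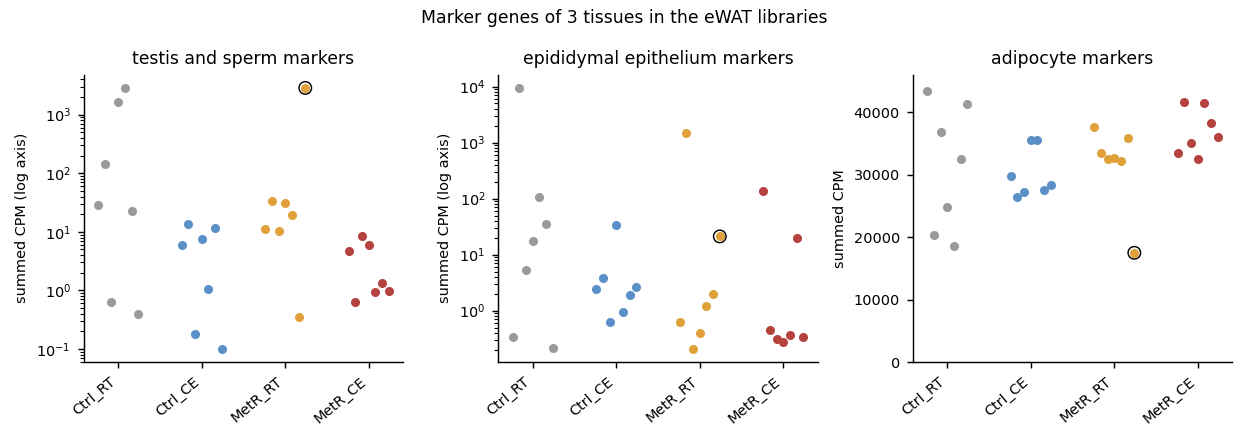
Summed normalised CPM of testis and sperm, epididymal epithelium and adipocyte markers in each of the 28 eWAT libraries by group, on log axes for the first pair of panels (sums under 0.1 drawn at 0.1) and a linear axis from 0 for adipocyte markers. Points are libraries and MetR_RT 7 is circled: it holds 2859 normalised CPM of testis and sperm markers and the lowest adipocyte sum of the MetR libraries, 17478.

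Cold added to methionine restriction changed few genes past the threshold. At an adjusted p under 0.05 and a change of at least 1.5-fold (a differentially expressed gene, DEG), edgeR's quasi-likelihood test on 28 libraries called 11 of 31464 genes (0.035% of those tested), 8 higher (0.0254%) and 3 lower (0.00953%) in MetR_CE. Without MetR_RT 7 it called 0 of 30919, with 2409 genes at an unadjusted p under 0.05 and a smallest adjusted p of 0.0585. With 24 libraries it called 31 of 27786 (0.112%, 17 or 0.0612% higher and 14 or 0.0504% lower), among them all 11, and with 22 libraries 15 of 27251 (0.055%, 10 higher and 5 lower), 9 of them among the 11. The count rests on single libraries: leaving each of the 14 out of the 28-library fit gave 0 to 12 DEGs, with 0 without MetR_CE 5, 6 or 7 or without MetR_RT 3, 5 or 7, 1 without MetR_CE 4, and 4 to 8 without MetR_CE 1, 2 or 3 or MetR_RT 2, 4 or 6. By gene, the 11 were DEGs in 0 (Gm5469) to 7 (Spsb1, Trim14, Plekhg6) of these 14 fits, Angptl2 in 1 and Arntl and Alkal2 in 2. Over the 24 fits that each left 1 library out of the 24-library set, the count ran from 1 (without MetR_RT 5) to 231 (87 higher, 144 lower, without MetR_RT 1). DESeq2's Wald test on 28 libraries, MetR_RT 7 among them, called 989 of 31464 genes, 98 higher and 891 lower. After shrinkage of the fold changes with apeglm it called 104, 63 higher and 41 lower. On the 24 libraries, without MetR_RT 7, apeglm gave 70 higher and 78 lower. In edgeR's test 3814 genes were lower at an unadjusted p under 0.05 in 28 libraries and 1292 in 27. In 106 genes every MetR_CE library was above every MetR_RT library (0.337% of those tested) and in 32 every one was below (0.102%).

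The genes that rose had different known roles. They were named after their values were seen. Spsb1, the substrate-binding subunit of an E3 ubiquitin ligase that targets inducible nitric oxide synthase, ranged from 38.7 to 53.8 normalised CPM in MetR_RT (median 45.2) and from 53.9 to 106 in MetR_CE (median 82.5). The groups did not overlap, and the difference was 0.84 ± 0.14 (log2 fold change ± SE, adjusted p = 0.0196 in the 28-library fit, 0.0585 in 27, 0.0169 in 24 and 0.00568 in 22). On the control diet the 24-library fit gave a rise with cold of 0.78 ± 0.16 (adjusted p = 0.00585), and the difference between the diets, the interaction of diet and temperature, was 0.03 ± 0.21 on the log2 scale.

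Angptl2, a secreted angiopoietin-like glycoprotein, ranged from 102 to 211 normalised CPM in MetR_RT (median 149) and from 235 to 329 in MetR_CE (median 290), again without overlap. Its log2 fold change was 0.87 ± 0.17 (adjusted p = 0.0386) in 28 libraries, with an adjusted p of 0.174 without MetR_RT 7, which had the lowest level. In 24 libraries it was 0.78 ± 0.11 (adjusted p = 0.00466), and it stayed a DEG in all 24 fits that left 1 more library out. Within the 28 libraries it was a DEG in only 1 of the 14 fits without 1 MetR library. On the control diet it was -0.12 ± 0.12 with cold, and the interaction in 24 libraries was 0.90 ± 0.16 (adjusted p = 0.0061).

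Plekhg6, a guanine nucleotide exchange factor, ranged from 5.01 to 12.1 normalised CPM in MetR_RT (median 8.44) and from 13.8 to 39.1 in MetR_CE (median 25.1). No library of one group reached the other, and the log2 fold change was 1.4996 ± 0.25 (adjusted p = 0.0196 in 28 libraries, 0.0585 in 27, 0.0234 in 24). It was the only DEG of the interaction in the 28-library fit, at 2.23 ± 0.35 (adjusted p = 0.0336). On the control diet it was at -0.86 ± 0.29 with cold in 24 libraries (adjusted p = 0.0858). The 28-library interaction had no DEG when MetR_CE 3, 5 or 6 or MetR_RT 2, 3, 5 or 6 was left out, while in the 24-library set the interaction of Plekhg6 was 2.33 ± 0.39 (adjusted p = 0.00511) and held in all 24 fits without 1 more library. Its change between MetR_CE and MetR_RT was a DEG in 16 of those 24 fits, and in 7 of the 14 within the 28 libraries.

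Trim14, an adaptor of antiviral signalling on mitochondria, ranged from 16.8 to 31.5 normalised CPM in MetR_RT (median 19.8) and from 30.1 to 64.9 in MetR_CE (median 42.7). Only the lowest MetR_CE library and the highest MetR_RT library crossed, and the log2 fold change was 1.05 ± 0.17 (adjusted p = 0.0196). With the control diet the same change was -0.31 ± 0.18, and the interaction in 24 libraries was 1.32 ± 0.24 (adjusted p = 0.0079). Adap2, an ARF GTPase-activating protein, rose from a median of 36.5 (27.02 to 57.1) to 80.2 (52.4 to 105) normalised CPM, a log2 fold change of 1.08 ± 0.20 (adjusted p = 0.0317). Its antisense neighbour Adap2os rose from a median of 4.09 (3.73 to 7.07) to 11.3 (6.58 to 15.5), by 1.23 ± 0.22 (adjusted p = 0.0298). The 2 overlap on opposite strands and the strand used in counting is not stated, so their reads cannot be told apart.

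Atp2a3, the SERCA3 calcium pump of the endoplasmic reticulum, ranged from 57.3 to 108 normalised CPM in MetR_RT (median 65.5) and from 83.5 to 188 in MetR_CE (median 131). The upper part of MetR_RT overlapped the lower part of MetR_CE, and the log2 fold change was 0.92 ± 0.17 (adjusted p = 0.0384). Pdlim7, a PDZ and LIM domain protein of the actin cytoskeleton, ranged from 25.1 to 43.1 in MetR_RT (median 27.7) and from 39.3 to 64.1 in MetR_CE (median 55.5), a log2 fold change of 0.81 ± 0.15 (adjusted p = 0.0298). It was the least stable of these in the 24-library set, a DEG in 7 of the 24 fits without 1 library, where Atp2a3 was one in 16.

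**Figure D2:**
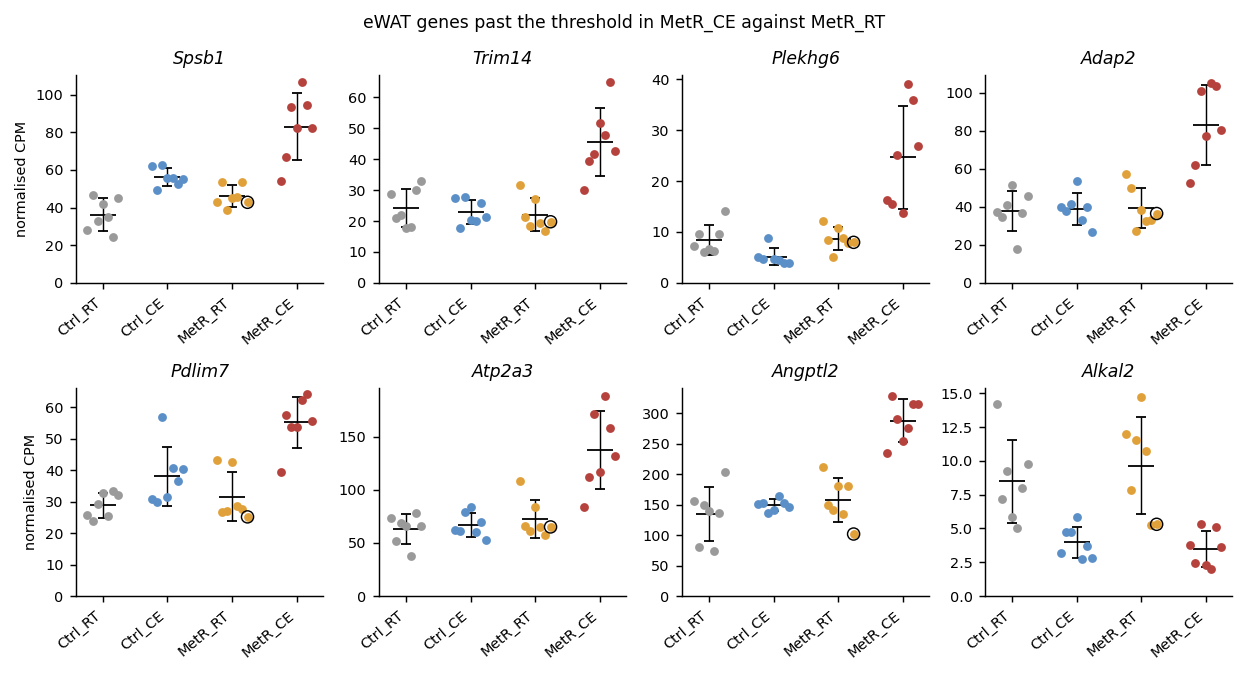
Normalised CPM of 8 genes called in the 28-library fit, in each eWAT library of the 4 groups, on linear axes; points are libraries, bars the mean ± SD of 7, and MetR_RT 7 is circled. MetR_CE lies wholly above MetR_RT for Spsb1, Plekhg6 and Angptl2. For Alkal2, the only gene shown that fell, the groups overlap.

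Of the 3 genes that fell, Alkal2 encodes a ligand of the receptor tyrosine kinases ALK and LTK, and ranged from 5.25 to 14.8 normalised CPM in MetR_RT (median 10.8) and from 1.99 to 5.33 in MetR_CE (median 3.62). Only the highest MetR_CE library reached into the range of MetR_RT, and the log2 fold change was -1.46 ± 0.28 (adjusted p = 0.0386 in 28 libraries, 0.0585 in 27, 0.0169 in 24). Cold on the control diet gave -1.39 ± 0.28 (adjusted p = 0.00556, 24 libraries), with an interaction of -0.20 ± 0.38. Gm5469 was at 0.0371 to 0.159 normalised CPM in MetR_RT and at 0 in all 7 MetR_CE libraries. Its adjusted p was 0.0437, and at such counts no fold change is given. The third was Arntl, described with the clock genes below.

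A further 9 genes had an adjusted p under 0.05 in the 28-library fit but changed less than 1.5-fold, and all 9 were higher in MetR_CE. These 9 were also named after their values were seen. With them 20 genes (0.0636%) passed the adjusted p alone. Mat2a, the catalytic subunit of the enzyme that makes S-adenosylmethionine from methionine, ranged from 222 to 334 normalised CPM in MetR_RT (median 274.8) and from 366 to 451 in MetR_CE (median 383). The groups did not overlap, and the log2 fold change was 0.53 ± 0.09 (adjusted p = 0.0196 in 28 libraries, 0.0954 in 27, 0.0296 in 24). On the control diet it was 0.02 with cold (adjusted p = 0.953), the interaction was 0.50 (adjusted p = 0.0891) in 28 libraries and 0.45 ± 0.13 (adjusted p = 0.0664) in 24, so a difference between diets was not shown. Pprc1, a PGC1-related coactivator, ranged from 21.3 to 24.3 normalised CPM in MetR_RT (median 22.5) and from 31.3 to 36.1 in MetR_CE (median 33.995), without overlap, at 0.57 ± 0.10 (adjusted p = 0.0196). Gnl3 and Ftsj3, of ribosome production, rose by 0.44 ± 0.07 and 0.32 ± 0.06 (adjusted p = 0.0196 and 0.0386). The others were Kat14, Ankrd12, Smad3, Numb and Uap1, with log2 fold changes from 0.30 (Numb) to 0.54 (Uap1).

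The 24-library fit added 20 DEGs, also named after their values were seen. Those that rose included Slc6a13, a transporter of GABA and taurine, from a median of 82.3 (40.9 to 88.9) to 150 (124 to 189) normalised CPM, at 1.02 ± 0.18 on the log2 scale (adjusted p = 0.0204). Lrp3, a receptor of the LDL receptor family, went from a median of 74.5 (60.9 to 116) to 128 (118 to 188), at 0.68 ± 0.12 (adjusted p = 0.0204). Both groups were apart in each of these genes, and both genes were DEGs in the 22-library fit too. Hr, a corepressor that binds the thyroid hormone receptor and is induced by thyroid hormone, went from a median of 103 (80.5 to 168) to 332 (134 to 371), at 1.36 ± 0.29 (adjusted p = 0.0436 in 24 libraries, 0.0554 in 28). Heg1, Nedd9, Myl4, Slc4a11, Gm5460 and 3425401B19Rik also rose.

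The lower ones included Fst, the activin antagonist follistatin, which fell from a median of 11.3 (5.97 to 19.3) to 5.25 (2.69 to 7.02) normalised CPM, at -1.26 ± 0.25 (adjusted p = 0.0359). Nabp1, a single-stranded DNA binding protein, fell from a median of 132 (69.6 to 330) to 66.4 (41.9 to 111), at -1.26 ± 0.26 (adjusted p = 0.0436), and Dapk1, a calcium/calmodulin-dependent death kinase, from 146 (94.2 to 202) to 92.3 (70.3 to 122), at -0.74 ± 0.13 (adjusted p = 0.0234). Groups overlapped in all of these. Pim1, Dtx4, Pdk1, Gm34759 and Igkv4-72 were lower as well. The last 3 of the 20 were epididymal genes with counts almost only in MetR_RT 2: Wfdc13 reached 176 normalised CPM there against 0 to 0.0302 in MetR_CE, and with the 22 libraries its log2 fold change was -0.98 (adjusted p = 0.858). Defb22 and Ces5a reached 165 and 323 normalised CPM in MetR_RT 2 and less than 1 in the other 13, and were at 1.76 and -0.11 in the 22-library fit, which leaves that library out (adjusted p = 0.742 and 0.989).

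Among 23 clock genes, 1 was a DEG in the 28-library fit, Arntl, and 9 were higher and 3 lower at an unadjusted p under 0.05 (5.19% and 12.1% of all genes were). The median log2 fold change was 0.16, against -0.06 over all genes tested, and in the 24-library fit 0.31 against 0.02. Promoter windows of Arntl, the called member, and of Per1 and Tef, E-box genes that were not called and had values of the other sign, are shown first. The sequences are RefSeq's on GRCm38.p6, from 250 bases before a transcription start to 50 after it, and capitals mark the E-box CACGTG, the element that BMAL1 heterodimers bind. This palindrome reads the same on both strands, and 7.15% of 32851 such windows hold it.
Arntl, chr7:113207215-113207514, plus strand: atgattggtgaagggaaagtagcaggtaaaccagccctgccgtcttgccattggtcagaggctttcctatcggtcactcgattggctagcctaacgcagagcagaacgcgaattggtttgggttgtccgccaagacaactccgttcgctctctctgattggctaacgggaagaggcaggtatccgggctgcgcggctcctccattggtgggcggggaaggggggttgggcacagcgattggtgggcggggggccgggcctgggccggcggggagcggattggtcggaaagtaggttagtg
Per1, chr11:69098699-69098998, plus strand: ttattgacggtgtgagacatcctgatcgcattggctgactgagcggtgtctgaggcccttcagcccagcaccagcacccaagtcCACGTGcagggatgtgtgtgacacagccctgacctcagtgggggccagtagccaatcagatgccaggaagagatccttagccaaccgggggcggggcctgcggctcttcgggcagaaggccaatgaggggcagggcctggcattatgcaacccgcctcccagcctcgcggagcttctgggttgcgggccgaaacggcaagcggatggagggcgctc
Tef, first start, chr15:81802423-81802722, plus strand: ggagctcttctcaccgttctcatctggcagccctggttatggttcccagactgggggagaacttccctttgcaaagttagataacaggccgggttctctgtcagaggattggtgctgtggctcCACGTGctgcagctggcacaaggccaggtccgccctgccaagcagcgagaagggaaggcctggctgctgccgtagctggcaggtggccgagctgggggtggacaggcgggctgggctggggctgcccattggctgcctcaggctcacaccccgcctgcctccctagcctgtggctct
Tef, second start, chr15:81811164-81811463, plus strand: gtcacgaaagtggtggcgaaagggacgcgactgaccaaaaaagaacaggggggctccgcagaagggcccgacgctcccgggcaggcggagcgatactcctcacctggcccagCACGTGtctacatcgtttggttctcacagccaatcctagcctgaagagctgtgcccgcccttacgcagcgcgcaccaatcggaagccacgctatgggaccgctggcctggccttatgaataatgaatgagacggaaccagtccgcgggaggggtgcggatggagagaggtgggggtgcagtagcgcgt

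The E-box lies 166 bases before the start in this Per1 window, and 127 and 138 bases before the start in the Tef windows. Of the clock genes, 18 had a window, 26 in all, and 6 windows (23.1%) of 5 genes held the E-box, those of Bhlhe41, Ciart and Cry1 beside the printed ones of Per1 and Tef. No match was found at the other start of Per1, at either start of Arntl or in the windows of Dbp, Per3, Nr1d1 and Nr1d2, which says only that these letters are not within them.

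In the activating limb, Arntl fell. It ranged from 8.996 to 36.1 normalised CPM in MetR_RT (median 15.98) and from 4.71 to 7.99 in MetR_CE (median 5.59). The groups did not overlap, and the log2 fold change was -1.46 ± 0.28 (adjusted p = 0.0395 in 28 libraries, 0.0585 in 27, 0.0169 in 24, 0.014 in 22). On the control diet it was -0.51 ± 0.29 (adjusted p = 0.366, 24 libraries), and the interaction, -1.08 ± 0.40, did not pass the test (adjusted p = 0.146). Npas2, the alternative partner of BMAL1, ranged from 1.41 to 9.37 normalised CPM in MetR_RT (median 6.16) and from 0.766 to 4.44 in MetR_CE (median 1.30), at -1.38 ± 0.39 (adjusted p = 0.117). Clock itself was at -0.16 ± 0.10 (adjusted p = 0.443).

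The E-box genes and the period genes had positive values, none a DEG. Per2 ranged from 14.2 to 39.6 normalised CPM in MetR_RT (median 26.3) and from 39.1 to 102 in MetR_CE (median 53.4), at 1.32 ± 0.28 (adjusted p = 0.0753). Dbp and Tef encode PAR bZIP activators of D-box genes. Dbp ranged from 24.6 to 83.4 (median 49.9) and from 86.0 to 130 (median 117), with no overlap and a log2 fold change of 1.001 ± 0.34 (adjusted p = 0.157). Tef ranged from 71.9 to 247.9 (median 136) and from 233 to 316 (median 264.5), at 0.77 ± 0.19 (adjusted p = 0.117), with the highest MetR_RT library inside the range of MetR_CE. Nr1d2 also did not overlap, at 74.7 (47.6 to 87.3) against 99.5 (91.2 to 115) normalised CPM, with 0.46 ± 0.14 (adjusted p = 0.123), whereas Nr1d1 was at 0.04 ± 0.17 in 28 libraries and at -0.06 in 24. Per1, Per3 and Cry1 were at 0.59 ± 0.25, 0.71 ± 0.25 and 0.14 ± 0.23 (adjusted p = 0.233, 0.162 and 0.836). On the control diet, edgeR's 24-library fit called Npas2 lower with cold (-1.57 ± 0.45, adjusted p = 0.0408). It called Dbp (1.48 ± 0.44, adjusted p = 0.0492), Bhlhe40 (2.20 ± 0.59, 0.0326) and Bhlhe41 (1.52 ± 0.35, 0.0128) higher. Of all genes 0.979% were called higher there and 1.44% lower. Per2 and Tef were at 0.98 ± 0.35 and 0.73 ± 0.24 and Per1 at -0.02 ± 0.29, none a DEG. In none of the 23 did cold act differently on the 2 diets past the threshold, in 28 or 24 libraries.

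**Figure D3:**
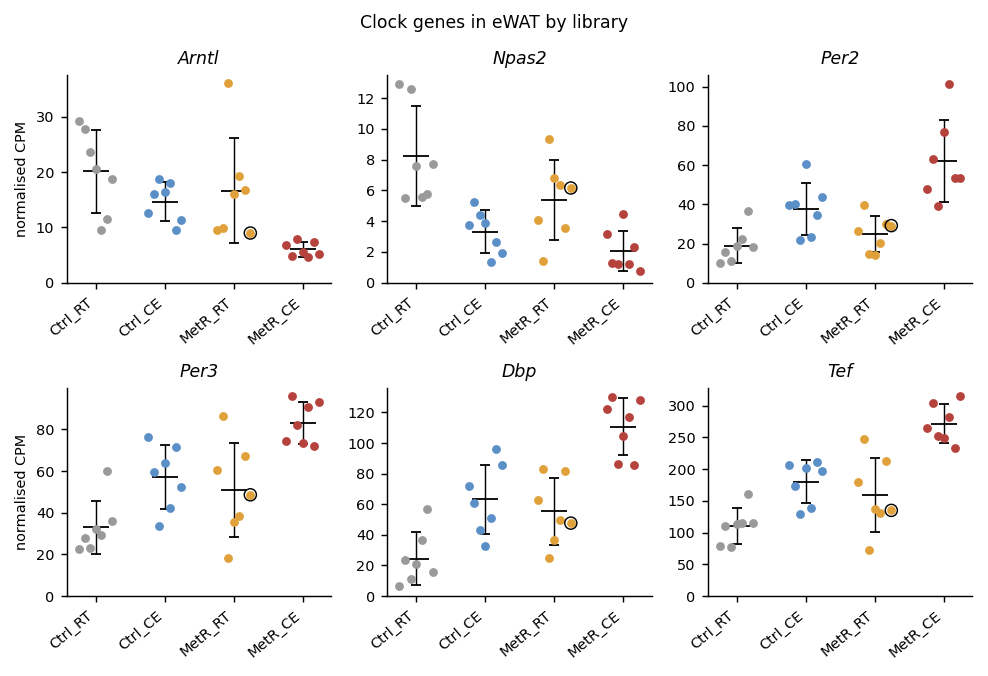
Normalised CPM of Arntl, Npas2, Per2, Per3, Dbp and Tef in each eWAT library of the 4 groups, on linear axes from 0; points are libraries, bars the mean ± SD of 7, and MetR_RT 7 is circled. MetR_CE lies wholly below MetR_RT for Arntl (at most 7.99 against at least 8.996 normalised CPM) and wholly above it for Dbp.

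Genes of fatty acid synthesis had lower values in MetR_CE, without a DEG by edgeR in 28, 27 or 24 libraries, while DESeq2 with apeglm on the 24 libraries called 9 of the 30 lower (0.492% of the genes with an adjusted p there). Over the 30 lipogenesis genes the median log2 fold change was -0.63 in 28 libraries, -0.85 in 27 and -0.83 in 24, against -0.06, 0.00 and 0.02 over all genes. At an unadjusted p under 0.05, 13 of 30 were lower in 28 libraries and 18 of 30 in 24, where 12.1% and 6.77% of all genes were, and 0 were higher. Fasn, fatty acid synthase, ranged from 3464 to 60724 normalised CPM in MetR_RT (median 24578) and from 2624 to 14022 in MetR_CE (median 6359). The groups overlapped, with 2 MetR_CE libraries below the lowest MetR_RT library, and the log2 fold change was -1.75 ± 0.58 (adjusted p = 0.149 in 28 libraries, 0.314 in 27, 0.094 in 24).

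Acly, which makes cytosolic acetyl-CoA from citrate, ranged from 309 to 12104 normalised CPM in MetR_RT (median 2419) and from 433 to 1435 in MetR_CE (median 831), at -2.22 ± 0.70 (adjusted p = 0.132). Elovl6, an elongase of saturated fatty acids, ranged from 51.5 to 1053 (median 222) and from 29.2 to 139 (median 84.6), at -2.23 ± 0.68 (adjusted p = 0.125 in 28 libraries, 0.0625 in 24). Scd1, stearoyl-CoA desaturase, was at -0.37 ± 0.44 and Srebf1, which encodes SREBP1, at -0.27 ± 0.22 (adjusted p = 0.753 and 0.603). MetR_RT 3 was the highest of its group in 24 of the 30 genes, MetR_RT 7 the lowest in 19 and MetR_RT 1 in 9. In the cold group MetR_CE 4 was the lowest in 14 and MetR_CE 5 in 8. Within the 24-library set the median was -0.52 without MetR_RT 3 and -1.004 without MetR_RT 1, where 11 of the 30 were DEGs, all lower.

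On the control diet most of these genes had values of the opposite sign. In the 24-library fit 24 of the 30 were lower with cold on the MetR diet and higher on the control diet, 1 (Pck1) was the other way round, and Acacb, Elovl5, Lpin1, Dgat1 and G6pdx had the same sign on both. In the 24-library fit, in which Ctrl_RT held 4 libraries, the median log2 fold change with cold was 1.29 on the control diet, with 8 DEGs higher and 1 lower among the 30 (0.979% and 1.44% of all genes). The interaction had a median of -2.09, with 18 of 30 called lower and 1, Pck1, higher (1.2% and 1.1% of all genes). It was -3.81 ± 0.82 for Fasn (adjusted p = 0.0146), -4.83 ± 0.98 for Acly (adjusted p = 0.0107), -4.69 ± 0.89 for Elovl6 (adjusted p = 0.00858) and -1.34 ± 0.30 for Srebf1 (adjusted p = 0.0168). Pck1, the enzyme that feeds glyceroneogenesis, had an interaction of 1.92 ± 0.41 (adjusted p = 0.0146). It fell by 1.55 with cold on the control diet (adjusted p = 0.00467) and was at 0.37 ± 0.28 on the MetR diet. Leaving out any 1 of the 24 libraries gave 15 to 21 of the 30 called lower in the interaction. All these fits lacked Ctrl_RT 5, the highest of its group in Fasn, Acly and Elovl6, though not in Scd1 or Dgat2. Acly was at 6297 normalised CPM there, against 437 to 3256 in the other Ctrl_RT libraries, and Elovl6 at 686 against 26.5 to 139. They also lacked MetR_RT 7, so they do not show how the count depends on the libraries set aside. In all 28 libraries the list's interaction had a median of -1.63, with 20 of 30 lower at an unadjusted p under 0.05 (5.19% of all genes) but 0 DEGs, and Fasn was at -3.35 (adjusted p = 0.0802). The interaction over all genes had 1 DEG in 28 libraries (0.00318%), 626 in 27, 640 in 24 (2.3%) and 545 in 22 (2%), of which 505 were among the 640.

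**Figure D4:**
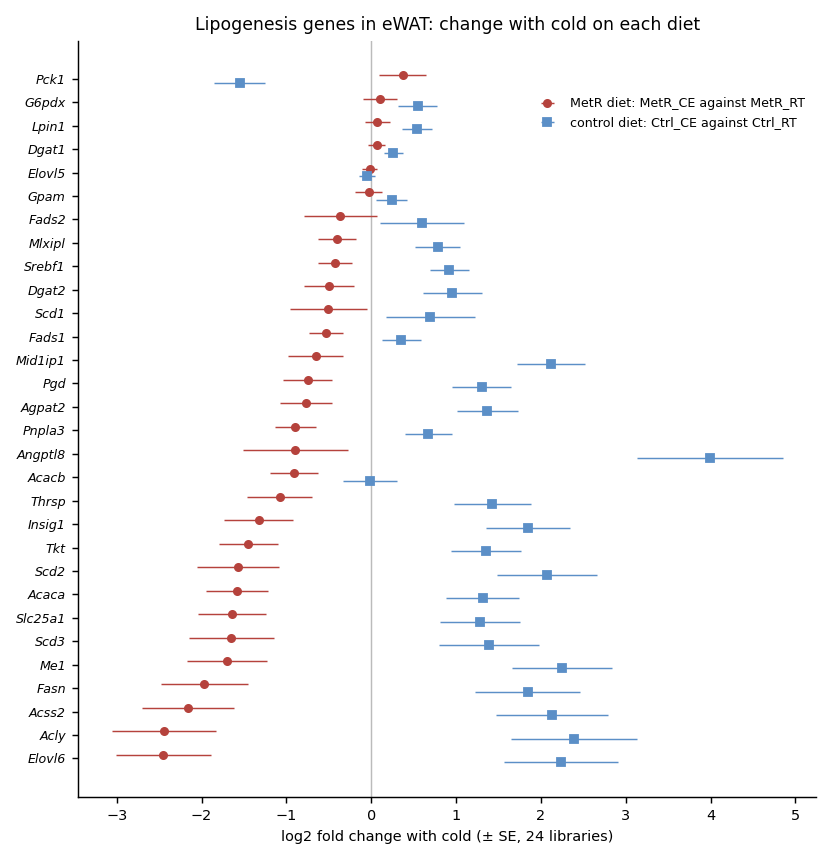
Log2 fold change with cold (± SE) of 30 lipogenesis genes in eWAT on the MetR diet (circles) and the control diet (squares), from the 24-library fit, sorted by the value on the MetR diet. Most members lie below 0 on the MetR diet and above 0 on the control diet, and Pck1 lies the other way; the median is -0.83 on the MetR diet and 1.29 on the control diet.

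Genes of cholesterol synthesis and uptake showed the same pattern, with 24 of 25 lower on the MetR diet and higher on the control diet in 24 libraries. The 25 members had a median log2 fold change of -0.45 in 28 libraries and -0.50 in 24, with 13 and 14 lower at an unadjusted p under 0.05 (12.1% and 6.77% of all genes) and 0 DEGs by edgeR, against 5 with DESeq2 and apeglm on 24 libraries. In that DESeq2 fit 0.492% of the genes with an adjusted p were called lower. Sqle, squalene epoxidase, ranged from 12.3 to 66.6 normalised CPM in MetR_RT (median 32.4) and from 13.5 to 23.5 in MetR_CE (median 19.4), at -0.85 ± 0.31 (adjusted p = 0.183). Cyp51, lanosterol demethylase, ranged from 21.6 to 186 (median 66.0) and from 22.5 to 47.3 (median 34.8), at -1.20 ± 0.37 (adjusted p = 0.129). With the control diet in 24 libraries the median was 1.13 with 10 DEGs, all higher, where 0.979% of all genes were. The interaction in 24 libraries had a median of -1.72 with 15 of 25 called lower, where 1.2% of all genes were. The latter count was lowest, 6, without Ctrl_RT 1.

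Smaller medians of the same sign ran through glycolysis, the TCA cycle and the respiratory chain. Among 25 genes of glucose uptake and glycolysis the median was -0.34 in 28 libraries and -0.20 in 24, and 1 was a DEG in 24, Pdk1, a kinase that inhibits pyruvate dehydrogenase. It ranged from 44.4 to 206 normalised CPM in MetR_RT (median 105) and from 46.5 to 82.8 in MetR_CE (median 51.6). The log2 fold change was -1.12 ± 0.24 (adjusted p = 0.0436), and it was no DEG in the 22-library fit (adjusted p = 0.0531). The interaction in 24 libraries called 11 of the 25 lower (1.2% of all genes), with Pkm, pyruvate kinase, at -1.62 ± 0.32 (adjusted p = 0.00961) and Slc2a4, the insulin-responsive glucose transporter GLUT4, at -1.21 ± 0.33 (adjusted p = 0.0436). The count was 2 without Ctrl_RT 1.

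The 22 TCA cycle genes had a median of -0.18 in 28 libraries and -0.30 in 24, with 1 and 13 lower at an unadjusted p under 0.05 (12.1% and 6.77% of all genes). The 68 nuclear-encoded respiratory chain subunits had medians of -0.13 and -0.24, with 1 and 51 lower. MetR_RT 7, the library with testis RNA, had the lowest level of its group in 20 of the 22 and in 65 of the 68, and once it alone was left out 12 of 22 and 40 of 68 were lower, beside 4.18% of all genes. None was a DEG by edgeR in these fits. The counts at an unadjusted p under 0.05 also rested on single libraries. Leaving 1 library out of the 24 gave 9 (without MetR_RT 3) to 19 (without MetR_RT 1) of the 22. For the 68 it gave 21 and 62, without the same libraries. In the cold group MetR_CE 4 had the lowest level in 10 of the 22 and 39 of the 68, and MetR_CE 5 in 12 and 11. The interaction in 24 libraries called 7 of the 22 and 11 of the 68 lower, beside 1.2% of all genes, with medians of -0.58 and -0.46. Those counts were 1 of the 22 without Ctrl_RT 1 and 1 of the 68 without MetR_RT 3. The 13 mitochondrially encoded subunits had a median of -0.28 in 24 libraries, with 2 lower at an unadjusted p under 0.05 (6.77% of all genes).

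**Figure D5:**
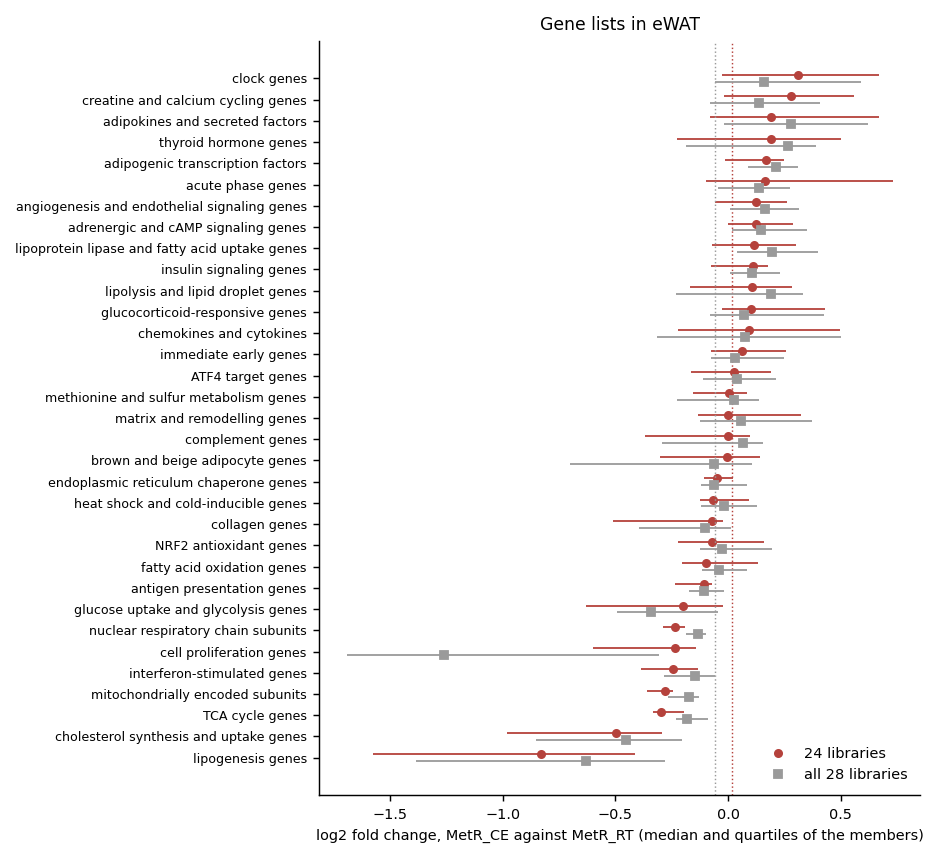
Median (point) and quartiles (bar) of the log2 fold change between MetR_CE and MetR_RT for the 33 gene lists in eWAT, in the fits of 28 and 24 libraries; dotted lines mark the median of all genes. Lipogenesis (-0.63 and -0.83) and cholesterol synthesis (-0.45 and -0.50) lie lowest in 24 libraries, and the proliferation list moves from -1.26 to -0.24 between the fits.

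Genes of brown and beige adipocytes were low and none was a DEG. Of 25 members 24 could be tested, and their median was -0.06 in 28 libraries and 0.00 in 24. Ucp1, the uncoupling protein, was at 0 to 1.62 normalised CPM in MetR_RT (median 0.118) and at 0 to 5.79 in MetR_CE (median 1.14). Both groups had libraries at 0, and the log2 fold change was 2.68 ± 0.96 (adjusted p = 0.174 in 28 libraries, 0.532 in 27). Dio2, the deiodinase that activates thyroid hormone, was at 0.212 to 1.49 (median 0.726) and 0.332 to 2.71 (median 0.791), at 0.39 ± 0.48 (adjusted p = 0.761), where on the control diet cold raised it by 3.08 (adjusted p = 0.00534, 24 libraries). The interaction for Dio2 missed the threshold, at -2.58 ± 0.75 (adjusted p = 0.0589), while that for Elovl3, an elongase of brown fat, was -6.53 ± 1.31 (adjusted p = 0.0107), with levels of 0.0273 to 2.94 normalised CPM in these 14 libraries. Ppargc1a was at 0.05 ± 0.25 and Prdm16 at 0.11 ± 0.14 (adjusted p = 0.96 and 0.779).

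The 34 genes of adrenergic and cAMP signalling had a median of 0.15 in 28 libraries and 0.12 in 24, with 9 higher at an unadjusted p under 0.05 in each (5.19% and 6.28% of all genes) and 0 DEGs. Adrb3, the main beta receptor of mouse fat, ranged from 567.9 to 1282 normalised CPM in MetR_RT (median 1000) and from 616 to 950 in MetR_CE (median 722). The groups overlapped, at -0.33 ± 0.23 (adjusted p = 0.484), whereas on the control diet it fell by 1.13 with cold (adjusted p = 0.000316), with an interaction of 0.68 ± 0.21 (adjusted p = 0.0771). Prkar2b, the RII beta regulatory subunit of protein kinase A, ranged from 438 to 686 (median 650) and from 841 to 1185 (median 953). It did not overlap, and in 24 libraries it was at 0.58 ± 0.11 (adjusted p = 0.0359), under 1.5-fold. Its interaction was 0.91 ± 0.17 (adjusted p = 0.00855), and that of Adcy5, an adenylyl cyclase, 2.31 ± 0.34 (adjusted p = 0.00309). Hcar1, the antilipolytic lactate receptor, had an interaction of 2.21 ± 0.32 (adjusted p = 0.00309). It fell by 1.73 with cold on the control diet (adjusted p = 0.000284) and was at 0.48 ± 0.21 on the MetR diet, all in 24 libraries.

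Among 19 genes of lipolysis and lipid droplets, 0 were DEGs, and the median was 0.19 in 28 libraries and 0.10 in 24. Pnpla2, adipose triglyceride lipase, was at 2417 (1145 to 2542) normalised CPM in MetR_RT and 2686 (2351 to 2994) in MetR_CE, at 0.32 ± 0.20 (adjusted p = 0.451). Its lowest value was again that of MetR_RT 7, and the interaction in 24 libraries was 0.78 ± 0.22 (adjusted p = 0.0499). Lipe, hormone-sensitive lipase, and Plin1, the droplet coat protein, were at 0.21 ± 0.15 and 0.19 ± 0.16 (adjusted p = 0.513 and 0.623). Lep, the adipokine leptin, ranged from 545 to 1055 normalised CPM (median 758) in MetR_RT and from 736 to 2501 (median 1771) in MetR_CE, at 1.09 ± 0.30 (adjusted p = 0.117), and Adipoq, adiponectin, was at 0.16 ± 0.22. The 31 genes of fatty acid oxidation had a median of -0.04 in 28 libraries and -0.10 in 24, with 0 DEGs.

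Mat2a apart, no gene of methionine and sulfur metabolism had an adjusted p under 0.05 in 28 libraries. The 33 members had a median of 0.02 in 28 libraries and 0.01 in 24. Cth and Cbs, of the transsulfuration pathway, were at -0.59 ± 0.43 and 0.21 ± 0.50 (adjusted p = 0.526 and 0.896), Mtr, methionine synthase, at -0.02 ± 0.13 in 28 libraries and 0.01 in 24, and Cdo1, cysteine dioxygenase, at -0.23 ± 0.21. The 31 ATF4 targets, which amino acid shortage induces, had a median of 0.04, and 0 were DEGs. Chac1, which degrades glutathione, ranged from 6.86 to 14.2 normalised CPM (median 10.1) and from 11.1 to 30.01 (median 20.3), at 0.90 ± 0.25 (adjusted p = 0.117), and Asns, asparagine synthetase, was at 0.15 ± 0.17 (adjusted p = 0.742).

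Matrix and immune lists held no DEG either, apart from Angptl2 in the angiogenesis list. The 21 collagen genes had a median of -0.10, with 5 lower at an unadjusted p under 0.05, where 12.1% of all genes were. Col3a1 was at 931 (658 to 1091) normalised CPM in MetR_RT and 568.2 (403 to 864) in MetR_CE, at -0.67 ± 0.22 (adjusted p = 0.145). The 30 interferon-stimulated genes had a median of -0.15 in 28 libraries and -0.25 in 24, with 2 and 9 lower at an unadjusted p under 0.05 (12.1% and 6.77% of all genes). The 34 chemokines and cytokines were at 0.07, and Ccl7, a monocyte chemoattractant, at 0.995 to 1.52 normalised CPM against 1.54 to 5.34 (1.23 ± 0.36, adjusted p = 0.122). The 12 macrophage markers had a median of 0.07 and summed to 482 to 816 normalised CPM in MetR_RT and 556 to 856 in MetR_CE. The 29 proliferation genes moved with MetR_RT 7: 14 were lower at an unadjusted p under 0.05 in 28 libraries and 2 in 24, beside the same shares of all genes. The 8 mesothelium markers, among them Wt1, Msln and Upk3b and none of them at 0 in all libraries, had a median of -0.87 and summed to 126 to 243.4 normalised CPM in MetR_RT and 9.9 to 172 in MetR_CE. Their part in the gene values above was not tested. Over the 33 lists, 3 of 819 distinct members were DEGs in 28 libraries, 0 in 27, 5 in 24 and 3 in 22. Over all genes tested the shares were 0.035%, 0%, 0.112% and 0.055%.

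The same comparison in inguinal fat (iWAT), with 13 of the same mice by the mouse number in the labels, called 589 of 29612 genes (191 higher, 398 lower, 1.99%) in a joint fit of both depots. Of the 587 tested in eWAT too, 3 were among the 11 DEGs of eWAT in 28 libraries and 10 among the 31 in 24. DEGs made up 0.035% and 0.112% of all genes tested in those eWAT fits. The 10 were Arntl, Atp2a3, Dapk1, Dtx4, Hr, Myl4, Nedd9, Slc4a11, Slc6a13 and Spsb1. Arntl was at -1.08 ± 0.26 in iWAT (adjusted p = 0.0156), and Dio2, at 0.39 in eWAT, at 2.92 in iWAT (adjusted p = 0.0011). The difference of the cold response between the depots had 0 DEGs in edgeR's quasi-likelihood test (0% of 29612, 3664 genes at an unadjusted p under 0.05, smallest adjusted p = 0.103) and 1 by limma-voom with the mouse as a block, an unnamed gene with the identifier ENSMUSG00000121001.1. The smallest adjusted p was that of Nr4a3, an immediate early nuclear receptor, at 0.33 in eWAT and 2.93 in iWAT, a difference of -2.60 ± 0.44.

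The 2 groups were not apart along the leading principal components of the 28 eWAT libraries. The first component took 65.5% of the variance of the 500 most variable genes. MetR_RT 7 lay far out on it (121.9), as did Ctrl_RT 5 (120.9) and Ctrl_RT 4 (112.7). Scores of the first component were -21.4 ± 30.4 in MetR_CE and 2.49 ± 57.0 in MetR_RT (mean ± SD, n = 7 each, exact permutation test, two-sided, p = 0.394, adjusted over the 2 components p = 0.394). The genes that weighed most on its high side included Foxj1, Cfap65, Ldhc and Prm2, of cilia and sperm. The second component, 17.2% of the variance, had scores of 9.33 ± 25.9 and -13.1 ± 19.01 (n = 7 each, exact permutation test, two-sided, p = 0.0915, adjusted p = 0.183). Dcdc2a, Mmp7, Cldn2 and Foxj1 were among the genes that weighed most on its high side, where MetR_CE 4 (47.2) and MetR_CE 1 (37.9) lay among others.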

How the data were processed

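The authors sequenced polyA RNA (NEBNext Ultra II, paired-end) and named STAR 2.7.9a with featureCounts 2.0.3 and, in parallel, Salmon 1.9.0 with tximport on GENCODE annotation. The deposited count table holds whole-number counts per gene, and which route made it, and the strand setting, are not given in the sources used here. Of its 56884 genes, 51948 were matched to symbols. Columns were matched to sample titles by library number, and 0 columns mapped to no sample. The authors' source data served only to identify the libraries they set aside. Genes with fewer than 10 counts in total were dropped. edgeR 4.0.16 (quasi-likelihood test, TMM factors, terms for diet, temperature and their interaction) was fitted in R 4.3.3 to 28 eWAT libraries, with Benjamini-Hochberg adjustment over all genes tested. A DEG had an adjusted p under 0.05 and a change of at least 1.5-fold. Levels are normalised CPM, and ranges are the lowest to the highest of 7 mice. Depths of 22021114 to 33372110 counts in the 14 libraries let levels well below 1 CPM be counted. The depots were fitted jointly on 14 eWAT and 13 iWAT libraries.

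The rule for named genes asked first for genes called both in 28 libraries and without MetR_RT 7, of which there were 0, then for called and defining members of 33 pathway and 16 cell type lists. Genes named outside it are said to be so. Members and lists were chosen with earlier results of these data known. Lists are described by counts and medians, with no test. Replicate numbers belong to different mice and did not pair them. Alternatives used DESeq2 1.42.0, apeglm 1.24.0 and limma 3.58.1, other factors, filters and sets of libraries. The fits were tested on simulated data. Promoter windows are RefSeq's on GRCm38.p6, and 102 of the 135 named genes had one. The windows were searched on both strands for CACGTG and for the CRE, D-box, heat shock, CARE, NF-kB and SRE motifs. Some genes of the lists are not reported here.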

Additional observations from a re-analysis of the deposited data

Results flagged for a closer look

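In 118 groups of 7 values, 20 held a sample far from the others by Dixon's criterion. Its nominal rate of 1 in 20 groups holds for normally distributed values. These were CPM levels and sums, partly of genes named after their values were seen, so the count cannot be set against that rate. MetR_RT 7 stood apart by its sums of testis and sperm markers (2859 normalised CPM), ciliated epithelium markers (504.3) and adipocyte markers (17478), and by low Prkar2b (437.5), Pnpla2 (1145) and Lipe (1279). MetR_RT 2 stood apart by epididymal markers (1496) and Wfdc13 (175.9) and by Per1 (114.7), and MetR_CE 1 by epididymal markers (137.1), low Pdlim7 (39.3) and high Pdk1 (82.8) and Cidea (5.37).

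Among single values, MetR_RT 3 was far above its group in Arntl (36.1 normalised CPM) and Ucp1 (1.62), MetR_RT 1 in Adcy5 (240.5) and MetR_RT 4 in Hr (168.2). In the cold group, MetR_CE 5 was the highest in Lrp3 (188.3) and alone above 0 in Wfdc13 (0.0302), and MetR_CE 6 was the highest in Col3a1 (863.6). Plekhg6 was flagged because cold acted differently on the 2 diets, by 2.23 on the log2 scale in the interaction of edgeR's quasi-likelihood fit of 28 libraries. No explanation was tested for any of these values.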

How the results depend on the processing

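The count of DEGs between MetR_CE and MetR_RT, 11 in edgeR's quasi-likelihood fit of 28 libraries, was 31 with 24 libraries, 3 without a filter beyond 1 count, 0 with upper-quartile factors, with glmTreat or with the 14 MetR libraries alone, and 1 with 13 of these (without MetR_RT 7). DESeq2 gave 989, apeglm 104 and apeglm on 24 libraries 148. It stayed within 1.5 times of 11 with RLE factors (10), filterByExpr (10), a robust dispersion estimate (11) and 22 libraries (15). The fits of 22 libraries, apeglm on 24 and the leave-one-out fits within the 24 libraries were chosen after seeing the data. Leaving out 1 library gave 0 to 231 over all these fits. Within the 24 it gave 1 without MetR_RT 5, 2 without MetR_CE 6 or MetR_RT 6, 7 without MetR_CE 3 or 5, 9 without MetR_CE 7 or MetR_RT 2, 12 to 16 without MetR_CE 2 or 4, MetR_RT 3, Ctrl_CE 1, 2, 6 or 7 or Ctrl_RT 1 or 3, 47 without Ctrl_CE 4, 55 without MetR_CE 1 or MetR_RT 4, and 231 without MetR_RT 1.

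The interaction, 1 DEG in 28 libraries, had 640 in 24 libraries, 545 in 22, 637 with DESeq2, 164 with filterByExpr and 0 with upper-quartile factors or glmTreat. Leaving out 1 library gave 0 to 1180. The 28-library count was 309 without MetR_RT 1 and 626 without MetR_RT 7, and within the 24 libraries it was lowest without Ctrl_RT 1 and 1010 and 1180 without Ctrl_CE 4 and MetR_RT 1. Cold on the control diet, 2595 DEGs, gave 673 in 24 libraries, 601 in 22, 1530 with filterByExpr, 0 with glmTreat and 2105 to 4200 with 1 MetR library left out (4200 without MetR_RT 7). The difference between depots, 0 DEGs, was 1 with limma-voom and the mouse as a block. Members of the 33 lists that were DEGs, 3 of 819 in 28 libraries, were 5 in 24, 16 with apeglm, 29 with apeglm on 24, 40 with DESeq2, 1 in 13 libraries, 0 without a filter, with upper-quartile factors, glmTreat or 14 libraries, and 0 to 35 with 1 library left out. Over all genes the counts were 11 in 28 libraries (of 31464), 31 in 24 (of 27786), 104 with apeglm, 148 with apeglm on 24 and 989 with DESeq2. In the 28-library fit the count of list members was 2 without MetR_CE 1, 1 without MetR_CE 2 or MetR_RT 2, 3 without MetR_RT 1 and 0 without any other of the 14. Within the 24 it was 35 without MetR_RT 1, 8 without Ctrl_CE 4 or MetR_RT 4, 7 without MetR_CE 1, 6 without Ctrl_CE 3 or Ctrl_RT 6, 1 without MetR_CE 6 or MetR_RT 5 or 6, and 2 to 4 without each of the rest. On the leading component, the difference of mean scores was -23.9 and 1.84 without MetR_RT 7, and on the second 22.4 and -21.0, where the sign of a component is arbitrary.

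The replicate block was a fit with the replicate number as a term, which labels different mice (correlations of same-numbered deviations from -0.58 to 0.45). It gave 0 DEGs for MetR_CE against MetR_RT (2620 genes at an unadjusted p under 0.05), 0 for the interaction, 573 for the control diet and 0 among list members. Each of the 135 named genes was refitted under up to 28 alternatives. The 11 called genes kept their sign in all 307 values and were called in 124, and of 3467 values of the other 124 genes, 28 in 8 genes had the opposite sign. The cause of these changes was not tested.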

Other observations

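Other gene groups of MetR_CE against MetR_RT held 0 DEGs in 28 libraries except where named. Adipogenic transcription factors (19 genes) had a median log2 fold change of 0.21, lipoprotein lipase and fatty acid uptake genes (14) of 0.20, adipokines (23 of 24 tested) of 0.28 and insulin signalling genes (23) of 0.10, with 5, 3, 5 and 7 members higher at an unadjusted p under 0.05 and 0 lower, where 5.19% of all genes were higher and 12.1% lower. Immediate early genes (37) were at 0.03, with Fos at -0.56 ± 0.55 (adjusted p = 0.678, edgeR's quasi-likelihood test). Maff and Mafk, small Maf transcription factors, were at 0.69 ± 0.20 and 0.46 ± 0.12 (adjusted p = 0.117 for both), and the interaction in 24 libraries was 0.70 ± 0.18 for Mafk (adjusted p = 0.0373). Heat shock and cold-inducible genes (25), endoplasmic reticulum chaperones (26) and NRF2 antioxidant genes (22) had medians of -0.02, -0.06 and -0.03. Matrix and remodelling genes (29), complement genes (21), acute phase genes (21), antigen presentation genes (19) and glucocorticoid-responsive genes (22) were at 0.06, 0.06, 0.14, -0.11 and 0.07. Angiogenesis genes (24) and creatine and calcium cycling genes (19) had medians of 0.16 and 0.14 and 1 DEG each, Angptl2 and Atp2a3. Thyroid hormone genes (13) were at 0.27, with Hr a DEG in 24 libraries and the receptors Thra and Thrb at -0.19 ± 0.10 and -0.08 ± 0.15, the latter of the other sign without MetR_RT 6.

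Among marker lists of cell types, 0 members were DEGs in either fit. Beside those of the report, the median log2 fold changes in 28 libraries were 0.27 for adipocytes, 0.37 for lipid-associated macrophages, -0.31 for neutrophils, -0.08 for T cells, -0.33 for B cells, 0.14 for endothelium, -0.15 for fibroblasts and progenitors, 0.16 for smooth muscle and pericytes, 0.06 for skeletal muscle, -0.05 for red blood cells and -0.47 for Schwann cells and nerve. The lists of testis and sperm, epididymal epithelium and ciliated epithelium were at -6.93, -1.57 and -0.31, with the libraries named above.

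Pfkfb3, which makes an activator of phosphofructokinase, ranged from 750 to 1375 normalised CPM in MetR_RT (median 1075) and from 1219 to 2162 in MetR_CE (median 1745), at 0.69 ± 0.20 (adjusted p = 0.12), while the median of the glycolysis list was negative. Psph, the last enzyme of serine synthesis, had an interaction in 24 libraries of -1.66 ± 0.32 (adjusted p = 0.0087). It rose with cold on the control diet (1.01, adjusted p = 0.0169) and was at -0.65 ± 0.21 on the MetR diet (adjusted p = 0.155).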
